A study of Mus musculus with 6 samples.

Results

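The effect of an inhibitor of the deubiquitinase USP7, the compound named in the titles of the plots, on macrophages stimulated with LPS was read from arrays of LPS+USP7i cells set against arrays of LPS cells. The arrays were chosen by their titles, which gave 4 of the 6 arrays of the series, 2 in each group. The other 2 arrays, of untreated cells, show the level before stimulation and share in the estimate of spread. All macrophages were grown over 7 days in L929-conditioned medium, a source of macrophage growth factor, from the bone marrow of wild type female mice of strain C57/B6 that were 6 to 8 weeks old by the labels, and the methods of the study give an older range. LPS, a ligand of the receptor TLR4, was present for 4 h at 100 ng/ml by the series description, and the protocol in the labels gives the same figure per microliter. LPS+USP7i cells received the inhibitor at 10 μM for 30 min ahead of LPS, and no record says whether LPS cells received its solvent. The 2 arrays of a group come from independent experiments, and with so few arrays every value is of limited precision.

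USP7 removes ubiquitin from proteins and so can spare them from the proteasome, the complex that degrades ubiquitinated proteins. Cells meet damage to proteins and redox stress with several transcription programs. NRF2, which KEAP1 holds for degradation until reactive compounds modify KEAP1, drives antioxidant and detoxification genes, HSF1 drives chaperones, and ATF4 drives genes of amino acid supply when translation is restrained. Macrophages activated through TLR4 switch on nitric oxide synthesis, antigen presentation, and interferon-induced defense proteins.

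Genes of the NRF2, heat shock, and ATF4 programs, of the proteasome, and of autophagy were among those that rose with the inhibitor in LPS-stimulated macrophages. *Hmox1*, which encodes heme oxygenase, rose 23.1-fold, *Hspb1*, a small heat shock protein, 19.7-fold, and *Slc40a1*, the iron exporter ferroportin, 27.1-fold. The inducible nitric oxide synthase gene *Nos2* fell by 4.79 on the log2 scale, and genes of interferon-induced GTPases and of the immunoproteasome and the transcription factor genes *Irf8* and *Maf* fell as well. *Usp7* itself did not pass the test.

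Values are log2 intensities after quantile normalization, so a difference of 1 is a 2-fold change, and n is 2 arrays per group throughout. A gene passed if its adjusted p was under 0.05 in a limma fit of all 6 arrays, with the adjustment made over 55680 probes. Of 34787 genes tested, 1919 (5.52%) were higher and 1485 (4.27%) were lower in LPS+USP7i than in LPS. Among the 15794 genes well above background on all 4 arrays, 1526 (9.66%) were higher and 1189 (7.53%) were lower. The median difference of the genes that passed was 1.13 for those that rose and −1.24 for those that fell, and 374 rose and 290 fell by at least 2 on the log2 scale. Of the genes that rose, 1279 ended above their mean in untreated cells and 640 at or below it, and of those that fell, 755 ended below that mean and 730 at or above it.

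The passing calls need the untreated arrays. Without untreated replicate 1, without untreated replicate 2, or with both left out, 0 genes passed in limma, with a smallest adjusted p of 0.0561, while 4330 genes were higher and 3673 or 3674 were lower at an unadjusted p under 0.05. With all 6 arrays the unadjusted counts were 4989 and 4060. Without LPS replicate 1, 525 genes were higher and 791 lower, and without LPS replicate 2, 540 were higher and 700 lower. Without LPS+USP7i replicate 1 the counts were 1162 and 588, and without LPS+USP7i replicate 2 they were 1906 and 1186. All 3404 genes that passed had the same sign of difference without either LPS+USP7i array. Leaving out an untreated array cannot change a difference between LPS+USP7i and LPS, only its spread. For a single gene, the smallest two-sided p that an exact permutation of 2 against 2 arrays allows is 0.333.

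Genes are described here in 31 lists that share some members and hold 822 genes on the array, of which 123 were higher and 71 were lower. Over these genes, the counts were 36 higher and 10 lower without LPS replicate 1, 28 and 11 without LPS replicate 2, 54 and 21 without LPS+USP7i replicate 1, and 96 and 53 without LPS+USP7i replicate 2. With normexp background correction they were 197 and 127. Counts with an array left out in turn are given in the order LPS replicate 1, LPS replicate 2, LPS+USP7i replicate 1, and LPS+USP7i replicate 2. They were 0 and 0 in limma without either untreated array, where no list had a member that passed. The plot of difference by signal shows that genes passed over the whole range of signal, in both directions.

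**Figure D1:**
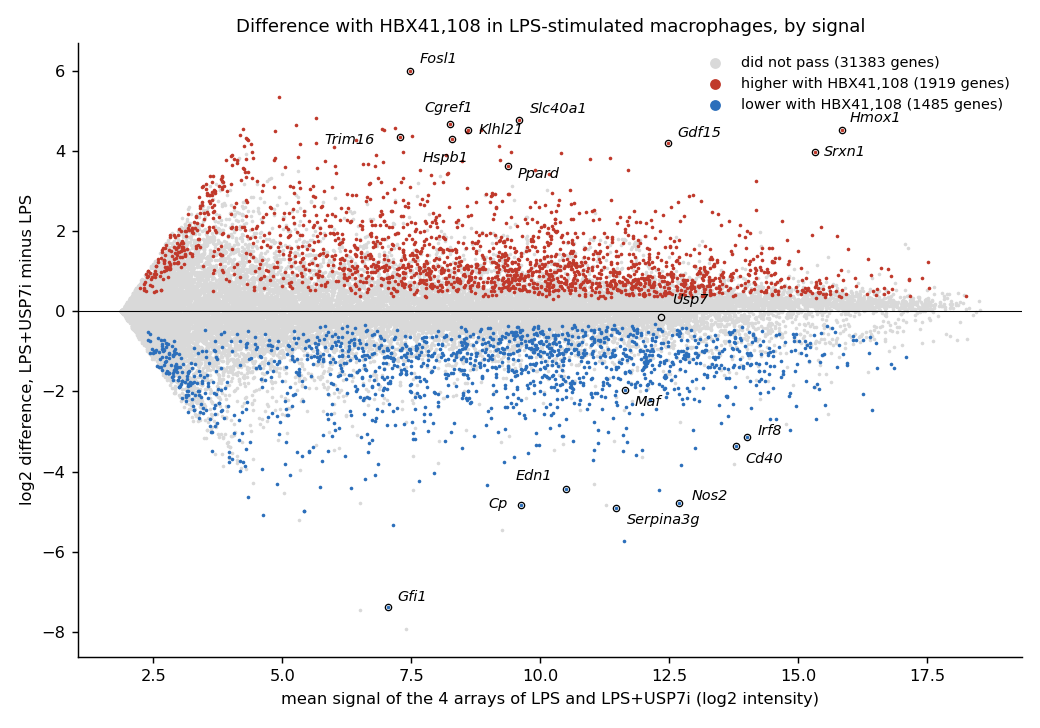
Each point is a gene, placed by its mean log2 intensity over the 4 arrays of LPS and LPS+USP7i (x axis) and its log2 difference, LPS+USP7i minus LPS (y axis), with 1919 genes that passed as higher in red, 1485 as lower in blue, and 31383 that did not pass in gray. *Hmox1* (4.53) and *Srxn1* (3.97) stand out among bright genes that rose and *Irf8* (−3.13) and *Nos2* (−4.79) among those that fell, *Usp7* lies near 0, and at the dim left end of the plot a gene can lie below background in a group, so that its size there is not established.

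The NRF2 list held 32 antioxidant and detoxification genes, and 17 of them (53.1%) were higher and 0 lower, beside 5.52% and 4.27% of all genes. Their median difference was 1.29, with 1.24 in replicate 1 and 1.34 in replicate 2, while the median over all genes was 0.001. Both LPS+USP7i arrays lay above both LPS arrays for 30 of the 32, against 26.8% of all genes, and above all 4 other arrays for 24, against 12.3% of all genes. In limma 0 members were lower at an unadjusted p under 0.05 too, and 26 were higher. With LPS replicate 1, LPS replicate 2, LPS+USP7i replicate 1, and LPS+USP7i replicate 2 left out in turn, 8, 6, 8, and 9 members passed, and the list median stayed between 1.25 and 1.44.

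*Hmox1*, whose product splits heme into iron, carbon monoxide, and biliverdin, was at 13.85 and 13.30 in LPS and 18.06 and 18.15 in LPS+USP7i, with 14.67 and 14.24 in untreated cells. The LPS+USP7i arrays were far above all 4 others, which lay close together. The log2 difference was 4.53 (standard error 0.25, adjusted p = 0.0113), and the adjusted p ranged from 0.000376 to 0.0561 over 14 other ways of processing, of which 11 gave a pass. Its probe lies at chr8:77624207-77624266 on build mm9.

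*Srxn1*, the gene of sulfiredoxin, which repairs overoxidized peroxiredoxins, was at 13.65 and 13.03 in LPS and 17.17 and 17.44 in LPS+USP7i. *Gclc*, the catalytic subunit of the enzyme that starts glutathione synthesis, was at 9.58 and 9.30 against 13.12 and 13.40, and its partner subunit *Gclm* at 9.60 and 8.52 against 12.75 and 12.96. In all 3 genes the groups were clear of each other, and the LPS arrays of *Gclm* were the furthest apart. Their log2 differences were 3.97, 3.82, and 3.79, with adjusted p values of 0.0144, 0.0104, and 0.0280. *Osgin1*, a growth inhibitor gene induced by oxidative stress, was at 7.53 and 6.73 in LPS and 11.65 and 10.86 in LPS+USP7i. It had been lower in LPS (mean 7.13) than in untreated cells (9.80), and both LPS+USP7i arrays stood above the untreated ones.

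*Txnrd1*, thioredoxin reductase, rose by 1.91, *Prdx1*, a peroxiredoxin, by 1.23, and *Txn1*, thioredoxin, by 0.46. *Me1*, a malic enzyme, rose by 1.98. Of the pentose phosphate pathway, *Taldo1* and *Pgd* rose by 1.31 and 1.26, while *G6pdx* and *Tkt* did not pass (log2 differences 0.31 and 0.34). *Cbr3*, a carbonyl reductase, was at 11.59 and 11.42 in LPS and 14.35 and 14.46 in LPS+USP7i. The heme transporter gene *Slc48a1* was at 12.90 and 12.91 against 14.83 and 14.77, so its replicates nearly coincided within each group. Not all well-known members passed. *Nqo1*, a quinone reductase, was at 7.68 and 7.03 against 9.04 and 9.36 with an adjusted p of 0.0668, and *Gsr*, glutathione reductase, differed by 1.76 with an adjusted p of 0.0581, although their groups did not overlap.

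Among the 8 regulators and partners of NRF2, 2 were higher and 0 lower (limma, 5 and 1 at an unadjusted p under 0.05), with a median difference of 0.51. *Mafg*, a small Maf protein that pairs with NRF2 on DNA, was at 12.26 and 12.19 in LPS and 14.68 and 14.61 in LPS+USP7i, a tight separation (log2 difference 2.42, standard error 0.07, adjusted p = 0.00987). *Bach1*, a repressor of the same sites, rose by 0.88. *Nfe2l2*, the NRF2 gene, differed by 0.71 (adjusted p = 0.162) and *Keap1* by −0.35 (adjusted p = 0.101), and neither passed.

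Of 25 heat shock genes, 24 were on the array, and 10 (41.7%) were higher and 0 lower. In limma 15 were higher and 2 lower at an unadjusted p under 0.05. The list median was 0.51, 0.58 and 0.52 by replicate. On both LPS+USP7i arrays 14 members lay above all 4 other arrays, against 12.3% of all genes. With LPS replicate 1, LPS replicate 2, LPS+USP7i replicate 1, and LPS+USP7i replicate 2 left out in turn, 3, 4, 7, and 10 members passed.

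*Hspb1* was at 5.78 and 6.48 in LPS and 10.71 and 10.15 in LPS+USP7i, with 5.63 and 5.94 in untreated cells. LPS and untreated arrays overlapped and both LPS+USP7i arrays stood well above them (log2 difference 4.30, standard error 0.34, adjusted p = 0.0150). *Dnajb4*, a cochaperone of HSP70, was at 7.32 and 7.99 against 10.39 and 10.76. *Dedd2*, a gene of a death effector domain protein kept in this list, was at 9.57 and 9.92 against 12.46 and 12.03, back to its level in untreated cells of 12.02 and 12.09. *Hsph1*, a large HSP70 relative, rose by 2.16, *Bag3*, an HSP70 partner in the removal of damaged proteins, by 1.60, *Hsp90aa1* by 1.57, and *Dnajb1* by 1.39. *Hspa1a*, the inducible HSP70, was at 11.68 and 11.95 in LPS and 13.88 and 12.44 in LPS+USP7i. The groups were apart, the LPS+USP7i arrays differed more from each other than in the genes above, and *Hspa1a* did not pass (adjusted p = 0.249). *Hsf1* did not pass either (log2 difference −0.28, adjusted p = 0.145), and *Hsf2*, a related factor, rose by 1.16.

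**Figure D2:**
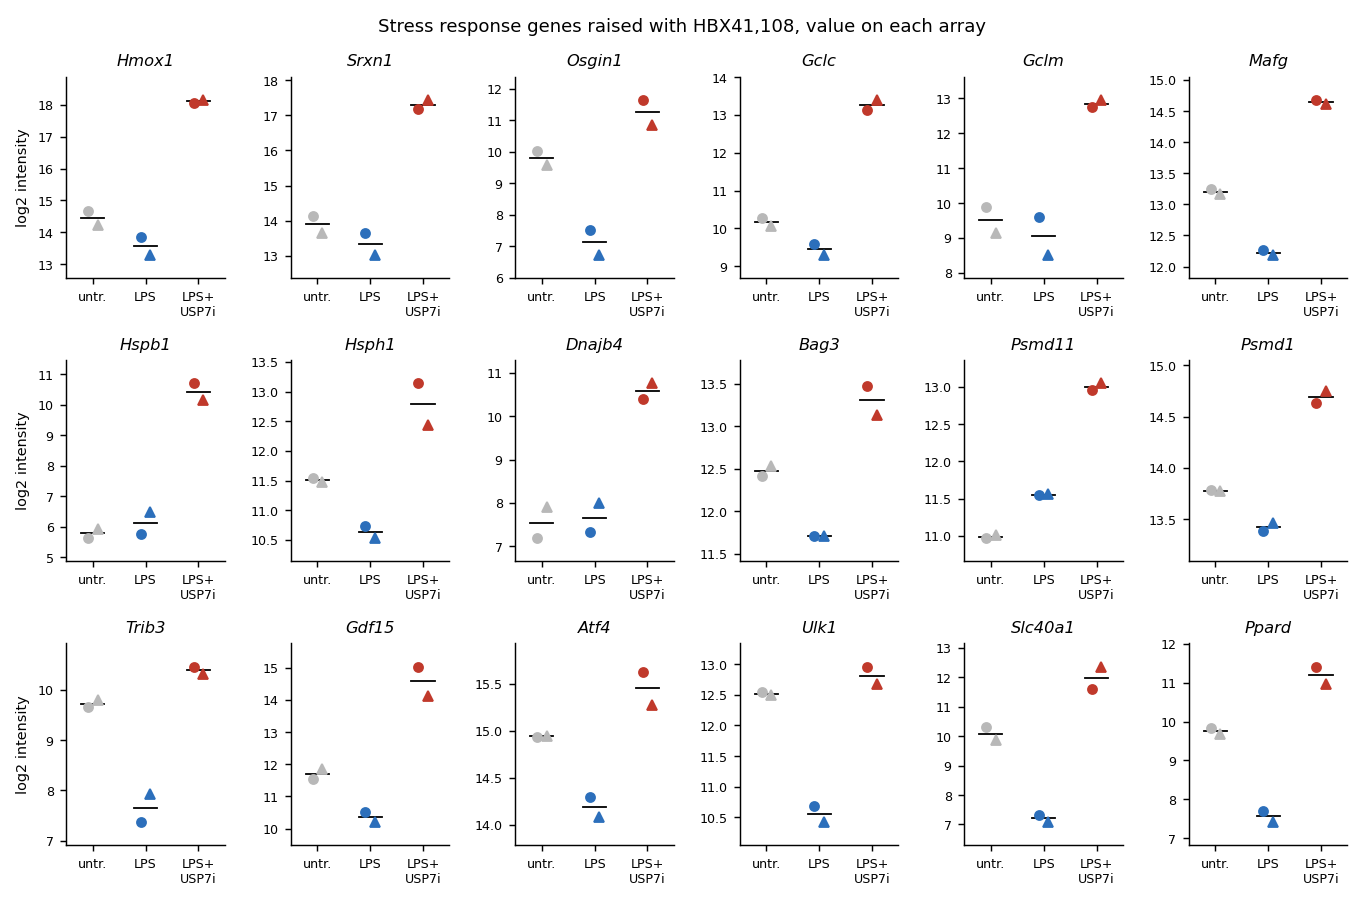
Log2 intensity (y axis, with its own range in each panel that does not start at 0) of 18 genes that rose is shown on each array of untreated, LPS, and LPS+USP7i cells (x axis), with replicate 1 as a circle, replicate 2 as a triangle, and the mean as a line. Both LPS+USP7i arrays lie above both LPS arrays in every panel, as for *Hmox1* (18.06 and 18.15 against 13.85 and 13.30) and *Psmd11* (12.96 and 13.05 against 11.55 and 11.56).

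Promoters of these 2 programs were searched for the letters of their known elements, because 17 genes of the NRF2 list and 10 heat shock genes were higher. The sequences are those of RefSeq on build GRCm38.p6, with 300 bases per promoter. The antioxidant response element was searched as TGACNNNGC, and the paired units of the heat shock element as GAANNTTC or TTCNNGAA, on both strands. Each heat shock motif is its own reverse complement and the pair can share a unit, and TGAC also opens the AP-1 site TGACTCA. TGACNNNGC was in 12.4% of all 32851 promoters and in the promoters of 14.0% of all 27025 genes. It was found for 11 of the 26 NRF2 list genes with a promoter in the table (42.3%), for 2 of 19 heat shock genes, and for 5 of 27 proteasome genes (18.5%). A heat shock motif was in 15.1% of all promoters and for 17.0% of all genes, and was found for 11 of the 19 heat shock genes (57.9%) and 2 of the 26 NRF2 list genes (7.69%). Of the 11 NRF2 list genes with their element 7 were higher and 4 did not pass. Of the 11 heat shock genes with theirs 5 were higher and 6 did not pass. Members without a match were higher too. In the NRF2 list these were *Slc7a11*, *Taldo1*, *Txn1*, *Osgin1*, *Cat*, *Cbr3*, and *Sqstm1*, and in the heat shock list *Dnajb1*, *Dedd2*, and *Hsf2*. The remaining members without a match did not pass, and a link between match and change was not tested. A match describes letters in a window and not a bound site.

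The sequences with a match among the leading members of these lists are given 5′ to 3′ with the match in capitals, to show where the letters lie around the starts of genes that rose. Each window runs past the start into the transcribed part, and the match of *Srxn1* lies there, while those of *Gclm*, *Hspb1*, and *Dnajb4* lie ahead of the start. They are *Srxn1* (chr2:152105274-152105573, plus strand), *Gclm* (chr3:122245307-122245606, plus strand), *Hspb1* (chr5:135887669-135887968, plus strand), and a promoter of *Dnajb4* (chr3:152193796-152194095, minus strand). *Srxn1* and *Gclm* each hold 1 match to the antioxidant element, *Hspb1* holds 2 matches to the heat shock motifs, and *Dnajb4* holds 1. The promoters of *Osgin1* (chr8:119436897-119437196, plus strand) and *Dedd2* (chr7:25219810-25220109, minus strand) and a further promoter of *Dnajb4* (chr3:152210034-152210333, minus strand) hold 0 matches to the motif of their list. *Hmox1* and *Gclc* have no entry in the table.
Srxn1: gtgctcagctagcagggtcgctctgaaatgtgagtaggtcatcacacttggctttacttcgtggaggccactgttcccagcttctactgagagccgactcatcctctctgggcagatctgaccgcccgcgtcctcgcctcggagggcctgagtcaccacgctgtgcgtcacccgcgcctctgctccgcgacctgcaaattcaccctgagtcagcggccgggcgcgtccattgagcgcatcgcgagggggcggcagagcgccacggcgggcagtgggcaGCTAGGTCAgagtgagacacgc
Gclm: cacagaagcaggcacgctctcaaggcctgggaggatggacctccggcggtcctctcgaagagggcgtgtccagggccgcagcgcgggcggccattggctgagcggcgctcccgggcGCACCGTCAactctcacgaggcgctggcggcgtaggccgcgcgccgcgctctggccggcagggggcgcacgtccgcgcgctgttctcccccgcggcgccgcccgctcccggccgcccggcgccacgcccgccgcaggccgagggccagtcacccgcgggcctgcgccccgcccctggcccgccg
Hspb1: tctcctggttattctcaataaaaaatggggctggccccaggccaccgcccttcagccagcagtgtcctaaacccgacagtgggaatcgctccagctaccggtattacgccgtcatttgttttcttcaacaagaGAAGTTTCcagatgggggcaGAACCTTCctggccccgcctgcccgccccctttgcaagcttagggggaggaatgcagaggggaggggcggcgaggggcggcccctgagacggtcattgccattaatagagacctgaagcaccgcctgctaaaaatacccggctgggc
Dnajb4: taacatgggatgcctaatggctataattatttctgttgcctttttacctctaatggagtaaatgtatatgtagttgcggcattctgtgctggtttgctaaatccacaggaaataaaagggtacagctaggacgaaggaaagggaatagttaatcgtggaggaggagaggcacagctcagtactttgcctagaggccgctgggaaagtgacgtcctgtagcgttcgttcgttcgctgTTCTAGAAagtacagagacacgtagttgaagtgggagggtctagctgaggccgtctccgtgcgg

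The ATF4 list held 27 genes, of which 8 (29.6%) were higher and 1 (3.70%) lower, with a median difference of 0.72 over all members and 0.96 over the 22 well above background on all 4 arrays. With LPS replicate 1, LPS replicate 2, LPS+USP7i replicate 1, and LPS+USP7i replicate 2 left out in turn, 3, 2, 3, and 8 members were higher. *Atf4* itself was at 14.30 and 14.09 in LPS and 15.63 and 15.28 in LPS+USP7i (log2 difference 1.26, adjusted p = 0.0269). *Gdf15*, a stress-induced secreted protein, was at 10.52 and 10.22 against 15.03 and 14.11. *Trib3*, a pseudokinase induced by amino acid shortage, was at 7.38 and 7.93 against 10.46 and 10.31. The groups were apart in each, and the LPS+USP7i arrays of *Gdf15* and *Trib3* exceeded the untreated ones too. *Chac1*, which degrades glutathione, rose by 2.89 from a level that was above background on 1 of the 2 LPS arrays, *Slc7a11*, the cystine carrier, by 2.20, and *Asns*, asparagine synthetase, by 1.70. The member that fell was *Nupr1*, a stress-induced nuclear protein, by 2.14, and *Ddit3*, the gene of CHOP, did not pass (log2 difference 1.20, adjusted p = 0.0789).

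Genes of endoplasmic reticulum stress were mixed, with 12.0% higher and 12.0% lower, beside 5.52% and 4.27% of all genes. Among genes well above background on all 4 arrays, as all 25 members were, the shares were 9.66% and 7.53%. Of 25, 3 were higher and 3 lower (0, 0, 1, and 1 higher and 0, 0, 0, and 2 lower with an array left out in turn), and the list median was 0.02, which changed sign to −0.09 with scaling to the 75th percentile and to −0.07 in the deposited log2 table. *Dnajb9*, a lumenal cochaperone, rose by 2.48 and *Ern1*, the stress sensor IRE1, by 1.91. *Herpud1*, *Sel1l*, and *Syvn1*, all of the degradation machinery of that compartment, fell by 0.76, 0.76, and 0.66. Of 20 aminoacyl-tRNA synthetases, 4 were higher and 4 lower (median 0.12), and 1, 0, 3, and 3 were higher and 0, 0, 3, and 2 lower with an array left out in turn. *Aars*, for alanine, rose by 1.14, *Nars*, for asparagine, by 0.85, and *Cars*, for cysteine, by 0.82, while *Wars*, for tryptophan, fell by 1.08 and *Kars*, for lysine, by 0.70.

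Proteasome genes split by the form of the particle. Of 33 constitutive and regulatory subunits, 18 (54.5%) were higher and 0 lower, and 29 had both LPS+USP7i arrays above all 4 others, against 12.3% of all genes. In limma 28 were higher and 1 lower at an unadjusted p under 0.05, and the list median was 0.60 (0.62 and 0.54 by replicate). The number of members that passed was 8 with scaling to the 75th percentile and 7 in the deposited log2 table, and the median stayed between 0.41 and 0.60 over the other ways of processing. It was 6, 4, 7, and 12 with LPS replicate 1, LPS replicate 2, LPS+USP7i replicate 1, and LPS+USP7i replicate 2 left out in turn. *Psmd11*, a lid subunit, was at 11.55 and 11.56 in LPS and 12.96 and 13.05 in LPS+USP7i (log2 difference 1.45, standard error 0.06, adjusted p = 0.0104). *Psmd1*, a base subunit, was at 13.39 and 13.46 against 14.63 and 14.75. *Adrm1*, a ubiquitin receptor of the particle, rose by 1.20, and *Psmc1*, an ATPase subunit, by 1.09. For *Psmd11* and *Psmd1* the replicates of a group nearly coincided and the groups were far apart by that measure.

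The interferon-inducible subunits that replace the catalytic ones moved the other way. *Psmb9* was at 14.74 and 14.47 in LPS and 13.16 and 13.34 in LPS+USP7i, and *Psmb10* at 16.59 and 16.56 against 15.23 and 15.36. LPS+USP7i arrays lay at or near the untreated level in both, which was 13.69 and 13.30 for *Psmb9* and 15.27 and 15.11 for *Psmb10*. Another probe of *Psmb9*, well above background, differed by −0.34 and did not pass (adjusted p = 0.702). *Psmb8* fell by 0.92 and *Psme2*, of the activator of the immunoproteasome, by 1.04. They belong to a list of 17 MHC class I presentation genes, of which 7 (41.2%) were lower and 0 higher (limma, 11 and 0 at an unadjusted p under 0.05), with a median of −0.92. With the same 4 arrays left out in turn, 0, 0, 1, and 3 were lower. *Nlrc5*, the transcriptional activator of class I genes, was at 13.11 and 12.94 against 10.92 and 11.19 and so returned to the untreated level of 10.95 and 10.64, and another of its probes, well above background, differed by −0.52 and did not pass (adjusted p = 0.551). *Tap2*, a peptide transporter subunit, fell by 0.98. *H2-K1* and *B2m*, the class I heavy and light chains, did not pass (log2 differences −0.18 and −0.03), and *Tap1* did not either (−1.54, adjusted p = 0.0524).

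Of 26 autophagy genes, 9 (34.6%) were higher, 1 (3.85%) was lower, and 16 did not pass, with a median of 0.56, and 4, 4, 5, and 9 were higher with LPS replicate 1, LPS replicate 2, LPS+USP7i replicate 1, and LPS+USP7i replicate 2 left out in turn. *Ulk1*, the kinase that starts autophagosome formation, was at 10.69 and 10.43 in LPS and 12.96 and 12.67 in LPS+USP7i, next to 12.54 and 12.50 in untreated cells. *Gabarapl1*, a protein of the autophagosome membrane, was at 14.50 and 14.26 against 16.48 and 16.50. *Nbr1*, a cargo receptor, was at 7.61 and 7.54 against 9.21 and 9.02, where untreated cells had 9.08 and 9.08. LPS had lowered all 3 genes, and with the inhibitor they stood at the untreated level or above it. *Sqstm1*, the cargo receptor p62 and also a member of the NRF2 list, rose by 1.56 above an LPS level that was already raised. *Atg16l1* fell by 0.91.

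All 36 lysosome genes were well above background on all 4 arrays. Of genes with such signal 9.66% were higher and 7.53% lower, and of all genes 5.52% and 4.27%. Of the 36, 5 (13.9%) were higher and 0 lower (limma, 12 and 1 at an unadjusted p under 0.05), with a median of 0.17. The number higher was 3 with scaling to the 75th percentile, 2 in the deposited log2 table, and 1, 2, 2, and 3 with an array left out in turn. A block on the replicate number gave 1 higher. *Atp6v1h*, a subunit of the proton pump, rose by 1.21, *Neu1*, a sialidase, by 0.95, and *Npc1*, a cholesterol exporter of the lysosome, by 0.60. Of 21 lipid efflux and storage genes, 4 were higher and 0 lower (limma, 10 and 1 at an unadjusted p under 0.05), with a median of 0.50, and 1, 1, 2, and 4 were higher with an array left out in turn. *Ppard*, a nuclear receptor for fatty acids, was at 7.69 and 7.43 in LPS and 11.41 and 10.97 in LPS+USP7i, above 9.84 and 9.68 in untreated cells. Its log2 difference was 3.63 (standard error 0.20, adjusted p = 0.0113). Another probe of *Ppard*, well above background, differed by 0.32 and did not pass (adjusted p = 0.202), and the mean over its probes differed by 1.97. *Pparg*, its relative, rose by 1.01 and stayed below the untreated level, *Lipa*, the lysosomal acid lipase, rose by 0.67, and *Soat1*, which esterifies cholesterol, by 0.52.

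Genes of metal, iron, and heme handling moved both ways, with 3 of 19 higher and 4 lower (1, 1, 1, and 3 lower with an array left out in turn). With all 6 arrays, 15.8% of the list were higher and 21.1% lower, beside 5.52% and 4.27% of all genes. *Slc40a1* was at 7.33 and 7.10 in LPS and 11.59 and 12.36 in LPS+USP7i, with 10.30 and 9.86 in untreated cells. LPS had lowered it and both LPS+USP7i arrays exceeded all others (log2 difference 4.76, standard error 0.33, adjusted p = 0.0133, range 0.000512 to 0.0572 over the alternatives). Its probe lies at chr1:45965255-45965314 on build mm9. *Lcn2*, which binds bacterial iron carriers, was at 11.41 and 11.29 against 8.85 and 8.76, and *Mt2*, a metallothionein, at 16.26 and 16.47 against 14.13 and 14.74. *Slc39a14*, a zinc and iron importer, fell by 1.10. *Hamp*, the gene of hepcidin, the hormone that removes ferroportin from the membrane, was lower too, at 5.45 and 5.75 against 3.88 and 4.05. It was above background on both LPS arrays only. *Cp*, the iron oxidase ceruloplasmin, was among the genes with the largest decrease, at 12.37 and 11.68 in LPS and 6.99 and 7.43 in LPS+USP7i, which overlapped the untreated arrays at 7.72 and 6.81.

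The list of immediate early genes and MAP kinase phosphatases had a median of 1.09, with 9 of 28 (32.1%) higher and 3 lower. With LPS replicate 1, LPS replicate 2, LPS+USP7i replicate 1, and LPS+USP7i replicate 2 left out in turn, 2, 1, 5, and 11 were higher. *Fosl1*, an AP-1 subunit, was not above background on any untreated or LPS array and stood at 10.76 and 10.19 in LPS+USP7i, at least 59.3-fold above LPS, a bound in which each dim array takes the lowest signal that still counts as above background. Such bounds hold for the intensities as processed here, and with normexp background correction the log2 difference of *Fosl1* was 3.93. *Dusp1* was at 10.38 and 10.34 against 13.02 and 12.41, *Dusp10* at 5.16 and 4.65 against 7.97 and 7.64, and *Dusp4* at 9.56 and 9.52 against 11.70 and 11.31. The groups were apart in all 3, which encode phosphatases that switch off MAP kinases. *Dusp10* was above background on 1 of the 2 LPS arrays. Its log2 difference of 2.90 was 1.42 at its lowest over the other ways of processing. *Egr2*, *Klf10*, and *Fos*, early transcription factors, rose by 1.73, 1.57, and 1.08. *Dusp2*, a phosphatase that LPS had induced, went from 15.06 and 14.82 to 12.27 and 12.40, and *Dusp16* fell by 1.85.

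Of 28 p53 target genes, 6 (21.4%) were higher and 3 lower, with a median of 0.42. These counts were 0, 0, 1, and 6 higher and 0, 0, 3, and 5 lower with an array left out in turn. A block on the replicate number gave 4 higher and 1 lower. *Plk3*, a stress kinase, rose by 3.07, *Trp53inp1* by 2.35, and *Pmaip1*, which encodes the proapoptotic protein NOXA, by 2.30. *Sesn1*, a stress-induced inhibitor of growth signaling, rose by 1.72. *Cdkn1a*, the gene of the cell cycle inhibitor p21, went the other way, from 16.12 and 15.92 in LPS to 15.10 and 14.81 in LPS+USP7i, and *Dram1* and *Btg2* fell by 2.13 and 1.28. *Trp53* did not pass (log2 difference −0.14, adjusted p = 0.816), and its difference was above 0, at 0.07 and 0.09, without LPS replicate 1 and without LPS+USP7i replicate 2. *Mdm2*, whose product marks p53 for degradation, did not pass (0.99, adjusted p = 0.0798).

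*Usp7* was at 12.41 and 12.40 in LPS and 12.11 and 12.43 in LPS+USP7i, so the groups overlapped (log2 difference −0.14, standard error 0.13, adjusted p = 0.627). A dimmer probe of the gene had a difference of 0.14, the mean of its probes differed by 0.0019, and without LPS+USP7i replicate 1 the difference was 0.03. Of 23 genes in the list of USP7 and its partners, 1 (4.35%) was higher and 3 (13.0%) were lower, beside 5.52% and 4.27% of all genes. With an array left out in turn, 0, 0, 0, and 1 were higher and 0, 0, 0, and 1 lower. With the replicate number as a block, 0 of the list were higher and 0 lower. *Dnmt1*, a DNA methyltransferase, rose by 0.65, and *Uhrf1*, which guides it, fell by 0.40. The other genes of the list that fell were the NF-κB subunits *Rel*, by 1.11, and *Rela*, by 0.54. Over the other ways of processing, the log2 difference of *Rel* lay between −1.25 and −0.43. *Daxx*, a chaperone of histones, did not pass (−1.13, adjusted p = 0.0536). Of 37 USP deubiquitinases, 6 were higher and 3 lower, with 3 higher with scaling to the 75th percentile and in the deposited log2 table, and 2, 2, 3, and 2 higher and 0, 0, 1, and 6 lower with an array left out in turn. With all 6 arrays, 16.2% of the USP list were higher and 8.11% lower, beside 5.52% and 4.27% of all genes. *Usp14*, which acts on the proteasome, went from 12.72 and 12.75 to 13.72 and 13.72, and *Usp20* rose by 1.03. *Usp18*, an interferon-induced member that removes ISG15, went from 16.15 and 15.91 to 14.17 and 14.40, and *Usp21* fell by 1.34. *Usp2* was not above background in LPS and was at least 2.97-fold higher with the inhibitor (log2 difference 0.82 with normexp background correction). Its LPS+USP7i arrays, at 6.43 and 5.68, stayed below the untreated ones at 7.97 and 7.81.

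*Nos2* was at 14.94 and 15.22 in LPS and 9.64 and 10.93 in LPS+USP7i, with 7.25 and 7.03 in untreated cells. The LPS+USP7i arrays lay between the other groups and apart from both, with the probe at chr11:78773567-78773626 on build mm9. The standard error of its difference was 0.48 and the adjusted p 0.0200, with a range of 0.000647 to 0.0805 over the alternatives. The other enzymes of inflammatory metabolites in its list differed less. *Acod1*, which makes itaconate, was at 18.18 and 18.12 against 17.37 and 17.78, and *Ptgs2*, the inducible cyclooxygenase, at 14.38 and 14.74 against 12.91 and 13.55. Neither passed, with adjusted p values of 0.548 and 0.108. Of the 20 members, 1 was higher and 3 lower (median −0.19, and −0.34 to −0.03 with each array left out), and 0, 0, 1, and 1 were lower with an array left out in turn. A block on the replicate number gave 1 higher and 1 lower. *Ptges3*, a prostaglandin synthase that is also an HSP90 cochaperone, rose by 0.90. *Ptges2*, another prostaglandin synthase, and *Hpgd*, which inactivates prostaglandins, fell by 0.58 and 0.82.

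Several genes that LPS had induced were among the largest decreases. *Serpina3g*, a protease inhibitor, was at 13.95 and 13.90 in LPS and 8.41 and 9.62 in LPS+USP7i, and its neighbor *Serpina3f* at 11.27 and 10.99 against 6.36 and 7.22. *Edn1*, the precursor of the vasoconstrictor endothelin-1, fell by 4.43. *Hdc*, which makes histamine, was at 11.30 and 11.29 against 7.33 and 8.00. *Cd38*, an enzyme that consumes NAD, fell by 3.77, *Fgl2*, a fibrinogen-like prothrombinase, by 3.72, *Mab21l3* by 4.04, and *Calhm6*, of an ion channel family, by 3.58. In each of these genes the LPS+USP7i arrays lay below both LPS arrays, with replicate 1 the lower. Where LPS+USP7i cells had no signal above background, only bounds hold. They were at least 87.9-fold for *Gfi1*, which encodes a transcriptional repressor (log2 difference −4.21 with normexp), 12.5-fold for *U90926*, 12.4-fold for *Pax4*, and 10.2-fold for the purine receptor gene *P2ry13*. For the receptor gene *Gpr18* the figure of 16.9-fold is its plain difference. Its LPS+USP7i values were not dimmer than the lowest signal used for the bound, so none was replaced. With normexp the log2 differences of *Gpr18*, *U90926*, *Pax4*, and *P2ry13* lay between −2.35 for *Gpr18* and −1.70 for *P2ry13*, smaller in size than these figures.

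**Figure D3:**
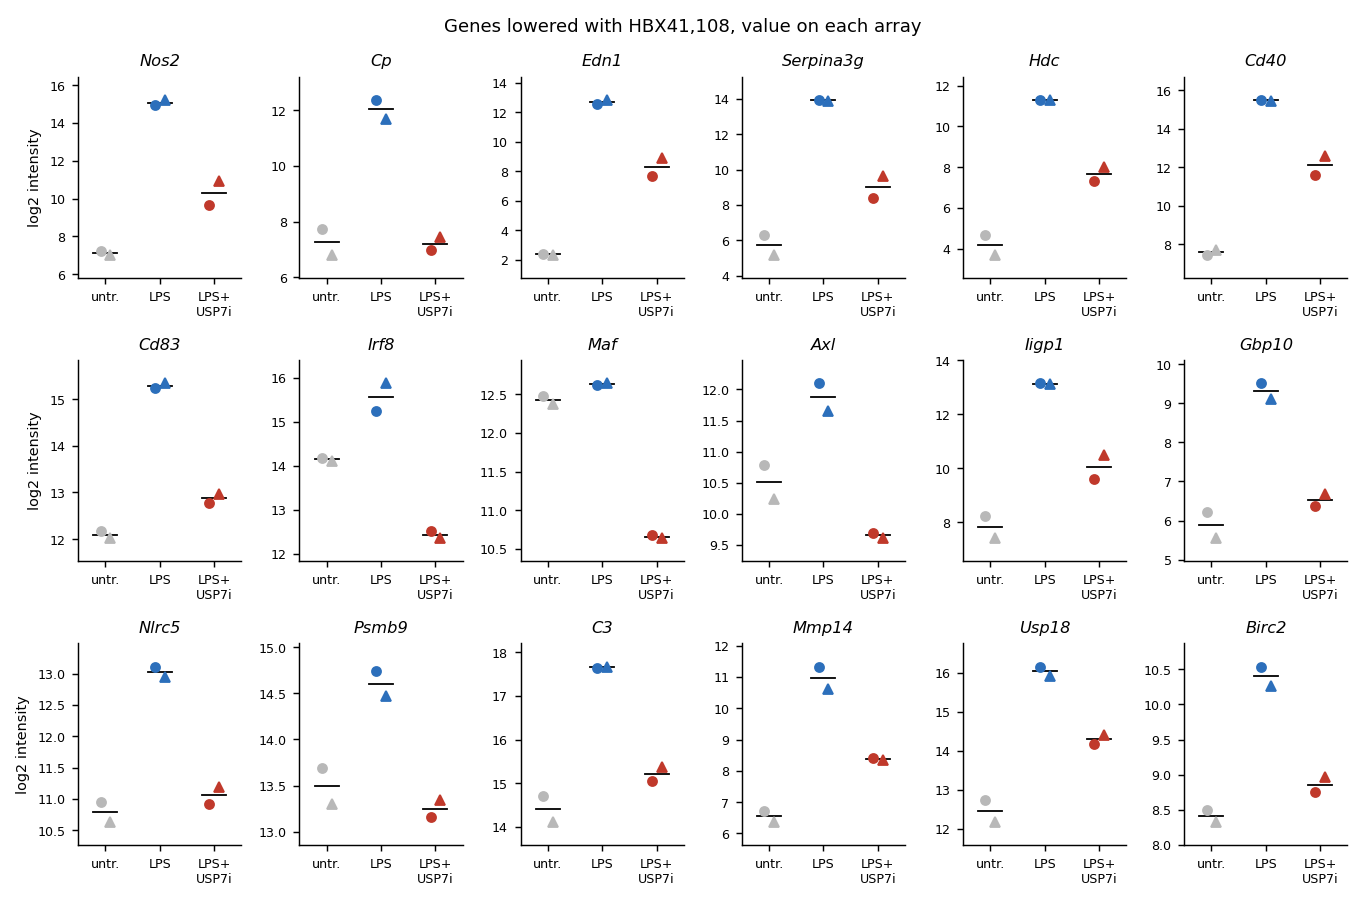
Log2 intensity (y axis, with its own range in each panel that does not start at 0) of 18 genes that fell is shown on each array of untreated, LPS, and LPS+USP7i cells (x axis), with replicate 1 as a circle, replicate 2 as a triangle, and the mean as a line. Both LPS+USP7i arrays lie below both LPS arrays in every panel, and for *Irf8* (12.51 and 12.35) and *Maf* (10.68 and 10.64) they lie below the untreated arrays too.

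The panels of genes that fell show some that returned to the untreated level and some that went past it. *Irf8*, a factor that directs the macrophage lineage and interferon responses, was at 14.17 and 14.11 in untreated cells, 15.25 and 15.87 in LPS, and 12.51 and 12.35 in LPS+USP7i (log2 difference −3.13, standard error 0.23, adjusted p = 0.0144). *Maf*, a factor of mature macrophages, was at 12.48 and 12.37, 12.62 and 12.64, and 10.68 and 10.64 in the same order, with its probe at chr8:118227736-118227795 on build mm9. LPS had left it near the untreated level, and the LPS+USP7i arrays stood apart from all others. *Axl*, a receptor for dying cells, was at 12.10 and 11.65 in LPS and 9.70 and 9.61 in LPS+USP7i, below 10.79 and 10.24 in untreated cells. Both LPS+USP7i arrays lay below all 4 others for 11.4% of all genes and for 7 of 26 members of the list of scavenger, efferocytosis, and complement genes. Of that list 5 (19.2%) were lower and 0 higher (limma, 8 and 2 at an unadjusted p under 0.05), with a median of −0.16 (−0.31 to −0.07 with each array left out), and 1, 2, 2, and 4 were lower with an array left out in turn. *C3*, the central complement protein, went from 17.65 and 17.67 to 15.04 and 15.36, and *Cx3cr1*, the fractalkine receptor, fell by 0.99. *Cmklr1*, also among the 5, fell by 1.91 but was above background on none of the 6 arrays, so its change is not established. Its log2 difference lay between −2.11 and −0.28 over the alternatives.

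All 18 interferon-induced GTPases, proteins that attack the vacuoles of pathogens, had both LPS+USP7i arrays below both LPS arrays, against 25.3% of all genes. Of them 9 were lower and 0 higher (limma, 18 and 0 at an unadjusted p under 0.05), with a median of −2.03, and −2.40 in replicate 1 and −1.59 in replicate 2. With LPS replicate 1, LPS replicate 2, LPS+USP7i replicate 1, and LPS+USP7i replicate 2 left out in turn, 1, 1, 0, and 3 were lower, and the median stayed between −2.32 and −1.84. With normexp 18 were lower, 14 in the deposited log2 table, and 2 with the slide column, which is also the replicate number, as a block. *Gbp10* went from 9.51 and 9.11 to 6.37 and 6.67, close to 6.23 and 5.55 in untreated cells, and *Gbp11* from 9.92 and 9.64 to 6.16 and 6.93. The median of LPS+USP7i minus untreated was 2.37, so the list as a whole stayed above the untreated level. Of 32 antiviral interferon-stimulated genes on the array, 7 (21.9%) were lower and 0 higher (limma, 25 and 0 at an unadjusted p under 0.05), with a median of −1.03. The number lower was 13 with scaling to the 75th percentile, 13 in the deposited log2 table, and 21 with normexp, and it was 1, 1, 2, and 3 with LPS replicate 1, LPS replicate 2, LPS+USP7i replicate 1, and LPS+USP7i replicate 2 left out in turn. *Eif2ak2*, the RNA-activated kinase PKR, fell by 1.73, and *Ddx58*, the RNA sensor RIG-I, by 1.48.

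Of 17 MHC class II and costimulation genes, 3 (17.6%) were lower and 0 higher (limma, 8 and 1 at an unadjusted p under 0.05), with a median of −0.66 (−1.01 to −0.45 with each array left out), and 1, 1, 2, and 4 were lower with an array left out in turn. *Cd40*, the receptor through which T cells license macrophages, was at 15.51 and 15.45 in LPS and 11.61 and 12.61 in LPS+USP7i. *Cd83*, an activation marker, was at 15.24 and 15.34 against 12.77 and 12.97 (log2 difference −2.42, standard error 0.11, adjusted p = 0.0104). Both stayed above the untreated arrays, and *Icosl*, a ligand for T cells, fell by 1.12. Of 22 genes of extracellular proteolysis and coagulation, 2 were higher and 2 lower (1, 0, 0, and 0 higher and 2, 1, 1, and 3 lower with an array left out in turn), with a median of −0.38 over all and −0.07 over the 20 above background on all 4 arrays. With all 6 arrays, 9.09% of the list were higher and 9.09% lower, beside 5.52% and 4.27% of all genes. For genes well above background on all 4 arrays these shares were 9.66% and 7.53%. *Mmp14*, a membrane collagenase, went from 11.33 and 10.62 to 8.42 and 8.35. *Mmp19* and *Adam8*, further proteases, rose by 1.10 and 0.59.

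Of 22 genes of the BCL2 family and apoptosis, 2 (9.09%) were higher and 5 (22.7%) lower, beside 5.52% and 4.27% of all genes. Among genes well above background on all 4 arrays, as 20 of the 22 were, the shares were 9.66% and 7.53%. With an array left out in turn, 0, 0, 1, and 2 were higher and 0, 1, 1, and 6 lower. *Birc2*, *Birc3*, and *Xiap*, inhibitors of caspases or of death receptor signaling, fell by 1.55, 1.27, and 0.77. *Casp8*, the caspase of death receptors, fell by 1.09. *Bmf*, a proapoptotic BH3-only gene, was above background on no LPS array and on both LPS+USP7i arrays, at least 2.04-fold higher with the inhibitor (log2 difference 0.69 with normexp). At 5.87 and 5.16 in LPS+USP7i it stayed well below the untreated level of 10.16 and 9.86, from which LPS had lowered it.

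Of 24 mitosis genes, 0 passed in limma, while 8 were lower and 0 higher at an unadjusted p under 0.05, and the list median was −0.78 (−0.93 and −0.67 by replicate). With each array left out in turn, that median ran from −1.22 to −0.35. With the slide column of the arrays, which is also the replicate number, as a block, 7 of the genes were lower. For 15 of the 24, both LPS+USP7i arrays lay below all 4 others, against 11.4% of all genes. *Mki67*, a marker of dividing cells, was at 12.33 and 12.67 in LPS and 10.62 and 11.45 in LPS+USP7i, and *Cenpe*, a kinetochore motor, at 11.37 and 11.68 against 9.41 and 10.14. The groups were apart, the LPS+USP7i arrays were the more spread, and the adjusted p values were 0.136 and 0.0724. In bulk RNA, fewer cells of a kind and less RNA per cell cannot be told apart. Of 26 DNA replication genes, 1 was higher and 2 lower, with a median of −0.21, and 1, 0, 0, and 1 were higher and 0, 0, 1, and 2 lower with an array left out in turn. With all 6 arrays, 3.85% of the list were higher and 7.69% lower, beside 5.52% and 4.27% of all genes. Of genes well above background on all 4 arrays, 9.66% were higher and 7.53% lower. *Ccne1*, which drives entry into S phase, fell by 1.93 and *Rfc3*, a clamp loader subunit, by 1.57. *Cdc6*, which licenses origins, was at least 2.13-fold higher (log2 difference 0.48 with normexp). It was at 5.68 and 5.46 in LPS+USP7i, below 6.87 and 7.11 in untreated cells.

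Of 25 glycolysis and hypoxia genes, 8 (32.0%) were higher and 1 lower, with a median of 0.36, and the number higher was 3 with scaling to the 75th percentile and 4 in the deposited log2 table. It was 0, 0, 2, and 3 with LPS replicate 1, LPS replicate 2, LPS+USP7i replicate 1, and LPS+USP7i replicate 2 left out in turn. *Egln3*, an oxygen sensor that is itself induced by hypoxia, rose by 2.42, *Vegfa*, the vascular growth factor, by 2.26, *Ankrd37* by 2.24, and *Pgam1*, a glycolytic mutase, by 0.84. The LPS+USP7i mean was below the untreated mean for *Vegfa* (8.90 against 9.40) and *Ankrd37* (8.09 against 9.68). It was above it for *Egln3* (8.14 against 6.56) and *Pgam1* (15.96 against 15.81). Over the list, the median of LPS+USP7i minus untreated was −0.04. *Pfkl*, a phosphofructokinase, fell by 0.52. Of 52 respiratory chain subunits, 0 passed in limma, with 9 higher and 1 lower at an unadjusted p under 0.05, and the median of 0.13 changed sign to −0.05 with scaling to the 75th percentile. Of 20 TCA cycle enzymes, 1 (5.0%) was higher, *Pdhb* of pyruvate dehydrogenase by 0.74, beside 5.52% of all genes. The median of 0.09 changed sign to −0.09 with the same scaling. Of 30 sterol and fatty acid synthesis genes, 1 (3.33%) was higher and 1 (3.33%) lower, beside 5.52% and 4.27% of all genes. Their median was 0.07, and it was −0.02 without LPS replicate 1. *Acaca*, the enzyme that commits carbon to fatty acids, fell by 0.77, and *Fasn*, fatty acid synthase, was above background in untreated and LPS+USP7i cells but not in LPS, and was at least 2.16-fold higher with the inhibitor than in LPS (log2 difference 0.68 with normexp).

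**Figure D4:**
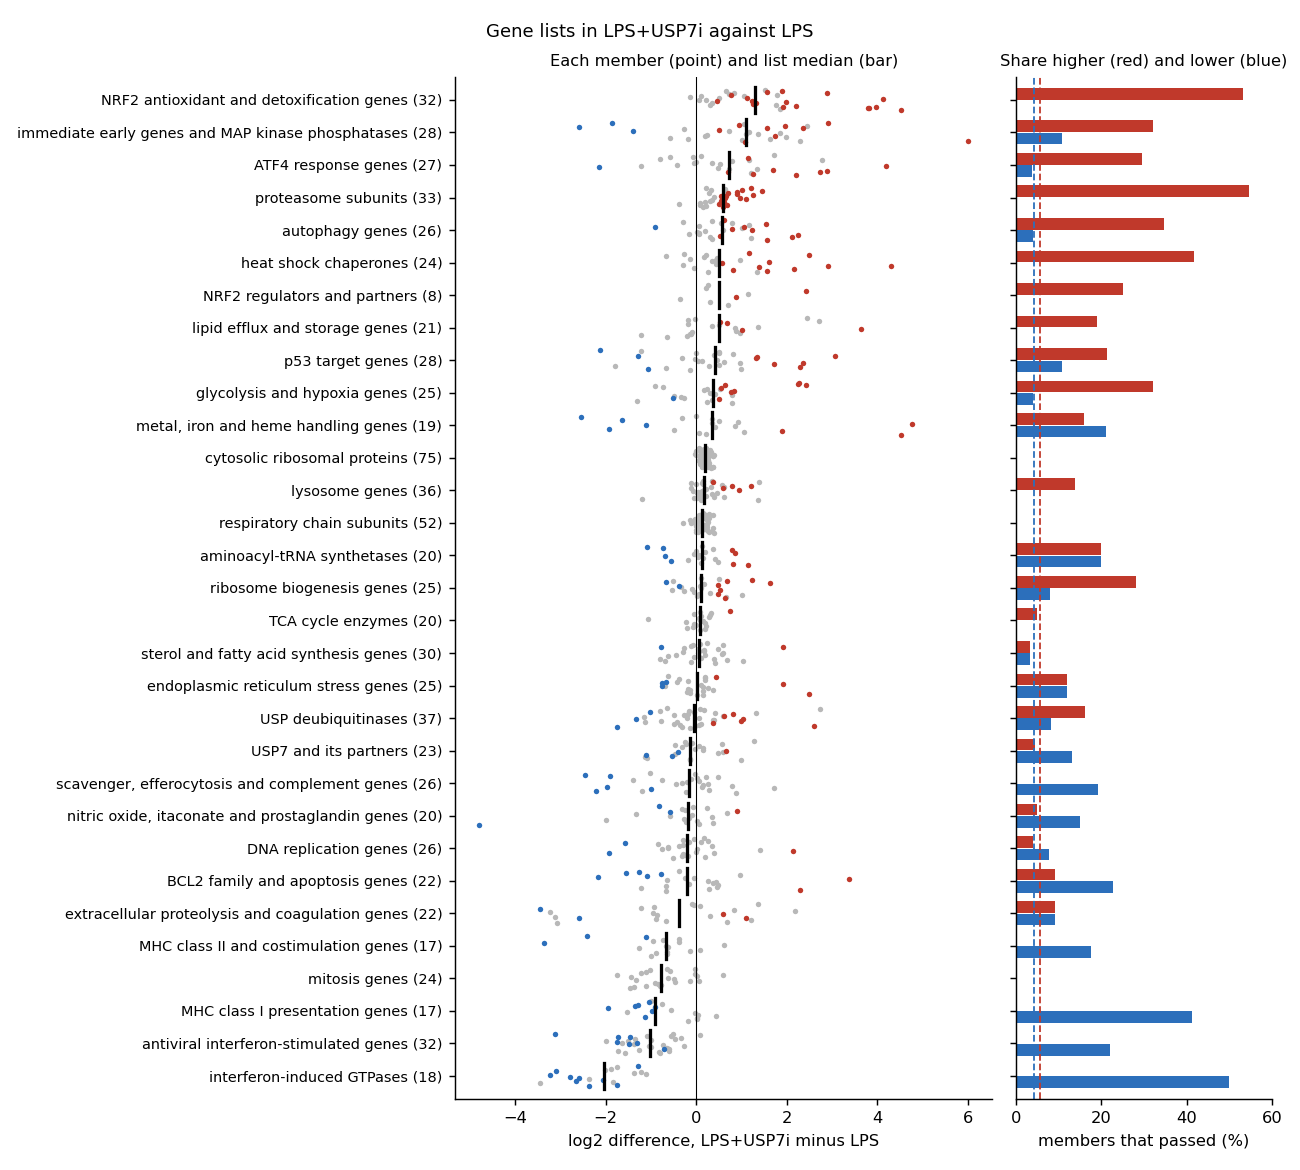
Left, the log2 difference, LPS+USP7i minus LPS (x axis), of each member of the 31 lists (number on the array in brackets), in red or blue where it passed as higher or lower and gray where it did not, with the list median as a bar. Right, the share of members that passed in each direction in percent, with dashed lines at 5.52% and 4.27% of all genes, from NRF2 genes at the top (median 1.29) to interferon-induced GTPases at the bottom (−2.03), and the medians of endoplasmic reticulum stress, TCA cycle, and respiratory chain genes near 0 change sign with scaling to the 75th percentile.

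The plot of the lists places the NRF2, immediate early, ATF4, proteasome, autophagy, and heat shock lists at the upper end of the medians and the interferon, antigen presentation, and mitosis lists at the lower end. Beside the lists, the largest increases past the test included *Cgref1* (log2 difference 4.66), *Fam13a* (4.58), *Klhl21* (4.51), *Cpeb2* (4.37), and *Trim16* (4.34). *Cdkn2b*, the gene of the cell cycle inhibitor p15, was at 6.85 and 6.35 in LPS and 10.98 and 11.23 in LPS+USP7i, and untreated cells had 6.40 and 6.14. Its LPS+USP7i arrays were high and the other 4 close together (log2 difference 4.51, standard error 0.22, adjusted p = 0.0107). *Klhl21*, an adaptor of a ubiquitin ligase, was at 6.49 and 6.20 against 11.49 and 10.22, next to 10.20 and 10.01 in untreated cells. *Cpeb2* binds mRNA and controls its translation, and *Trim16* is a protein of the tripartite motif family. With no signal above background in LPS, the increase was at least 15.3-fold for the granzyme gene *Gzmm* and 11.9-fold for *Slc23a3*, and with normexp their log2 differences were 2.17 and 2.19, smaller than these bounds.

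The cells carried the markers of their label. All 9 macrophage markers were well above background on all 4 arrays, with *Csf1r*, the receptor for macrophage growth factor, the brightest at 17.68 and 17.64 in LPS and 17.56 and 17.31 in LPS+USP7i. Their summed intensity was 723994 and 748850 in LPS and 629533 and 588067 in LPS+USP7i, and 2 of the 9 were lower. *Cd14*, the coreceptor for LPS, went from 17.41 and 17.47 to 15.99 and 16.26, and *Fcgr1*, a receptor for antibodies, from 13.34 and 13.08 to 11.60 and 11.62. LPS+USP7i arrays were below both LPS arrays in both genes.

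Of 9 neutrophil and precursor markers, 6 were above background on all 4 arrays, and their summed intensity was 5875 and 11809 in LPS and 6210 and 9800 in LPS+USP7i, with *Elane* the brightest except on LPS replicate 2, where *S100a9* was brighter. Of 5 dendritic cell markers, 2 were above background, with sums of 25336 and 24858 against 51411 and 34660, most of it from *Siglech*. Of 5 B cell and 6 T and NK cell markers on the array, 2 each were above background on all 4 arrays. The sums were 1153 and 533 against 715 and 315 for B cells, where *Cd79b* was the brightest, and 2345 and 2096 against 2378 and 1791 for T and NK cells, where *Cd4* was. The B cell factor gene *Pax5* passed as higher, and of the 4 arrays it was above background on those of LPS+USP7i. Of 6 erythroid markers, 0 were above background on any of the 4 arrays, and of 4 mast cell and basophil markers 0 were above it on all 4. Of 6 stromal markers, 0 were above background on all 4 arrays. Their sums were 584 and 555 in LPS and 100 and 102 in LPS+USP7i, and the brightest, *Pdgfrb*, was at 8.89 and 8.89 against 3.02 and 5.22 (adjusted p = 0.0640). The part of these cells in the results was not tested.

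The arrays of the 2 groups were alike in depth, with 25223 and 25002 of 59305 spots well above background in LPS and 26415 and 25290 in LPS+USP7i, and 0 saturated spots. Arrays of replicate 1 lay in column 1 of the slide and those of replicate 2 in column 2. LPS arrays lay in row 2 and LPS+USP7i arrays in row 4, with a median local background of 59.5 and 59.0 against 51.0 and 47.0, so an effect of the row and of the inhibitor cannot be told apart. Replicates of LPS+USP7i differed with an SD of 0.395 over 20705 probes and those of LPS with 0.342.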

How the data were processed

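Gene expression was measured on 6 one-color Agilent arrays, 2 each of untreated, LPS, and LPS+USP7i cells, grouped by the sample labels. The deposited scanner files hold, per spot, a background-corrected intensity that the authors had not normalized between arrays. A table of log2 values that the authors deposited, described as quantile-normalized with limma, served as an alternative here. The corrected intensity of spots that are not controls was log2-transformed and quantile-normalized, spots flagged by the scanner software were left out, and spots of a probe were averaged. The 3 groups went into 1 model in limma 3.58.1 (lmFit, eBayes, R 4.3.3), with 3 residual and 1.05 prior degrees of freedom. Adjusted p values of LPS+USP7i minus LPS are those of Benjamini and Hochberg over 55680 probes, with a threshold of 0.05. A gene was represented by its brightest probe, which gave 34787 names, 22221 of them in RefSeq. Dim probes were kept. A bound on a fold sets the lowest signal well above background on an array in place of a dimmer value. Array positions are on build mm9 and promoters on GRCm38.p6, where chromosome 18 was not used.

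The members and lists were chosen with earlier results of these data known. Genes named were, among RefSeq genes that passed and whose arrays did not overlap, the 10 largest increases and 10 largest decreases above background on all 4 arrays, and the 5 largest bounds in each direction, without cytokines, chemokines, and NF-κB subunits among the first of these. To them were added the 4 largest changes that passed in each of 31 lists, and *Usp7*, *Nfe2l2*, *Keap1*, *Hsf1*, *Atf4*, *Trp53*, *Mdm2*, and *Daxx*. Further list members, such as *Nqo1*, *Hspa1a*, *Ddit3*, *Psmb8*, *Mki67*, and *Ptgs2*, were named after their values were seen. Promoters were those of the 3 NRF2 genes and the 3 heat shock genes with the largest changes that have an entry.

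The alternatives were scaling to the 75th percentile, normexp correction with an offset of 50, the deposited log2 table, dim probes left out, flagged spots kept, a fit of the LPS and LPS+USP7i arrays only, the replicate number as a block, the mean over a gene's probes, each array left out in turn, and a log2 difference of at least 1 in addition. A group left with 1 array was assumed to vary like the others.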

Additional observations from a re-analysis of the deposited data

How the results depend on the processing

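Against 1919 genes higher and 1485 lower, normexp correction gave 2880 and 2373, leaving out dim probes 2772 and 2359, for which fewer genes were tested, and a required log2 difference of at least 1 gave 1112 and 985. The LPS and LPS+USP7i arrays alone gave 0 and 0 in limma, where 4330 were higher and 3674 lower at an unadjusted p under 0.05. That fit estimates the spread from fewer arrays, and the cause of the drop was not tested. With each array left out in turn, the counts ranged from 0 to 1906 higher and from 0 to 1186 lower. The cause of the difference with normexp was not tested.

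With the replicate number as a block, 1425 genes were higher and 1124 lower, of which 1172 and 840 had passed without it. The pairing of arrays by replicate number is not stated in the labels, and the number is also the slide column of the array. Over 20705 probes, the deviations of arrays with the same number correlated with r = 0.422 between LPS and LPS+USP7i, 0.468 between LPS and untreated cells, and 0.398 between LPS+USP7i and untreated cells. With the block, 7 of 24 mitosis genes were lower, where 0 had passed in limma without it (8 at an unadjusted p under 0.05), and 2 of 18 interferon-induced GTPases were lower, where 9 had been. The number lower went from 7 to 4 for MHC class I genes, 5 to 2 for apoptosis genes, and 4 to 1 for aminoacyl-tRNA synthetases. It went from 3 to 0 for USP7 and its partners and from 2 to 0 for ribosome biogenesis genes. For p53 target genes, USP deubiquitinases, and nitric oxide, itaconate, and prostaglandin genes it went from 3 to 1. The number higher went from 9 to 5 for immediate early genes and from 8 to 5 for glycolysis and hypoxia genes. For USP deubiquitinases it went from 6 to 3, and for lysosome genes from 5 to 1.

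Of the 3404 genes that passed, 3404 kept their sign with 75th percentile scaling, 3397 with normexp, and 3392 in the deposited table. Of the 132 named genes, 122, 129, and 114 kept sign and side of the threshold in the same order, and 7 did in the fit of LPS and LPS+USP7i alone. The number was 89 with the replicate block, 7 without either untreated array, 38 without LPS replicate 1, 38 without LPS replicate 2, 63 without LPS+USP7i replicate 1, and 94 without LPS+USP7i replicate 2.

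Signs changed for *Usp7*, to 0.0019 with the mean over probes and 0.03 without LPS+USP7i replicate 1 (−0.30 to 0.03 with each array left out), and for *Trp53*, to 0.07 without LPS replicate 1 and 0.09 without LPS+USP7i replicate 2 (−0.37 to 0.09). List medians changed sign for endoplasmic reticulum stress genes (−0.09 with 75th percentile scaling, −0.07 in the deposited table, −0.0048 without LPS replicate 2), TCA cycle enzymes (−0.09) and respiratory chain subunits (−0.05) with 75th percentile scaling, sterol and fatty acid synthesis genes (−0.02 without LPS replicate 1, up to 0.24 without another array), USP7 and its partners (0.03 without LPS+USP7i replicate 1, down to −0.30 without another array), and USP deubiquitinases (0.0019 with the mean over probes, 0.02 without LPS+USP7i replicate 1, down to −0.14 without another array). The cause was not tested. Genes below background on the arrays of a group have bounds only, and the bound of *Gpr18* equals its plain difference. These hold for the processing used, and with normexp each such log2 difference was smaller in size than its bound.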

Other observations

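Of 75 cytosolic ribosomal protein genes on the array, 0 passed in limma, with 25 higher and 0 lower at an unadjusted p under 0.05. Both LPS+USP7i arrays lay above both LPS arrays for 52 of them, against 26.8% of all genes. The list median was 0.20, which was 0.03 at its lowest over the other ways of processing. Of 25 ribosome biogenesis genes, 7 (28.0%) were higher and 2 (8.0%) lower, beside 5.52% and 4.27% of all genes, with a median of 0.11. The number higher was 4 with scaling to the 75th percentile, 3 in the deposited log2 table, and 0, 0, 1, and 6 with LPS replicate 1, LPS replicate 2, LPS+USP7i replicate 1, and LPS+USP7i replicate 2 left out in turn. *Gnl3*, a nucleolar GTPase, rose by 1.64, *Ppan* by 1.23, and *Nip7* by 0.69, while *Utp20* fell by 0.66.

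Of the 132 named genes, 39 had 49 further probes, of which 31 were well above background on all 4 arrays of LPS and LPS+USP7i. Of these 31, 30 had the sign of the probe used and 1, a probe of *Usp7*, the opposite sign. Of the same 31, 21 passed and 10 did not. The size was far from that of the probe used for *Ppard* (0.32 against 3.63), *Snx29* (0.56 against a bound of 3.27), *Nlrc5* (−0.52 against −1.96), and *Psmb9* (−0.34 against −1.36), and none of these further probes passed.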
